A study of Mus musculus with 2 samples.

Results

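The Fc gamma receptors and the chains they signal through were examined in microglia of mice lacking PARK7/DJ-1 (knockout, KO) and of their wildtype (WT) littermates after systemic inflammation. The 6 genes were chosen by name: the activating receptors Fcgr1, Fcgr3 and Fcgr4, the inhibitory receptor Fcgr2b, the signalling chain Fcer1g and the kinase Syk. They are 6 of the 19537 genes listed in the count matrices. Microglia are the resident macrophages of the brain. All mice, of either genotype, had received lipopolysaccharide (LPS), a bacterial membrane component, at 4 μg/g by intraperitoneal injection 24 h before the brain was taken, at an age of 3 to 4 months, and the 2 groups are labelled KO LPS and WT LPS. They are called KO and WT hereafter. The KO carries a gene-trap allele of Park7, which encodes DJ-1, in every cell of the body, in a line backcrossed to C57BL/6NCrl. Cells sorted as CD11b+CD45int from 1 female and 1 male mouse were pooled per genotype and captured by Drop-seq, which reads the 3′ ends of transcripts and marks each captured molecule with a unique molecular identifier (UMI). There was 1 library per genotype and no library of untreated mice, so genotype and library cannot be told apart, no test between genotypes was possible and no p-values are given. All intervals are exact 95% intervals and cover counting error only.

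Fc gamma receptors bind the constant part of immunoglobulin G and let macrophages sense and engulf antibody-coated material. The high-affinity receptor FcγRI (Fcgr1) and the receptors FcγRIII (Fcgr3) and FcγRIV (Fcgr4) pass their signal through the FcRγ chain encoded by Fcer1g. This chain carries an immunoreceptor tyrosine-based activation motif (ITAM), which Src-family kinases phosphorylate and to which the kinase SYK then binds. FcγRIIB (Fcgr2b) has an inhibitory motif (ITIM) in its own tail, which recruits the lipid phosphatase SHIP1, the product of Inpp5d, and dampens the same pathway. In macrophages these receptors are known to respond to interferons and bacterial products.

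The ITAM of the chain and the ITIM of the inhibitory receptor are shown as coding sequence, with the tyrosine codons in capitals, from the first GENCODE vM39 transcript of each gene. The Fcer1g stretch spans codons 65 to 79 of 86 and holds the paired tyrosines of the ITAM at codons 65 and 76. The Fcgr2b stretch spans codons 317 to 322 of 340 and holds the single tyrosine of the ITIM at codon 319. The paired pattern was found in Fcer1g and in none of the 4 receptors. The looser single-tyrosine pattern was not particular to Fcgr2b: besides its 1 match there, it matched at 3 places in Fcgr1, 1 in Fcgr4, 1 in Fcer1g outside the ITAM and 0 in Fcgr3, and a match of letters is not a shown ITIM.
Fcer1g ITAM: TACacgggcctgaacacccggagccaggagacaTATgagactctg
Fcgr2b ITIM: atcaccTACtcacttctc

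Fcgr2b, Fcgr4, Fcgr3 and Fcer1g lie within 273792 bases of mouse chromosome 1, while Fcgr1 and Syk lie elsewhere. In the RefSeq annotation of GRCm38.p6 (the mm10 assembly) their gene bodies, exons and introns included, are Fcgr2b at chr1:170960558-170976071 (minus strand), Fcgr4 at chr1:171018926-171029761 (plus strand), Fcgr3 at chr1:171051169-171065915 (minus strand) and Fcer1g at chr1:171229572-171234349 (minus strand). Fcgr1 is at chr3:96282909-96293969 (minus strand) and Syk at chr13:52582610-52648792 (plus strand). Of the 42 RefSeq genes from Fcgr2b to Fcer1g, 10 had a UMI in these cells. Fcgr2b and Fcgr3 share long stretches of sequence: 166 of the 1496 windows of 50 bases in the Fcgr3 transcript also occur in that of Fcgr2b. In the last 500 bases, which 3′ libraries mostly read, 0 of 451 windows of any of the 4 receptors occur in another one.

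The 250 bases upstream of a listed transcript start of the 3 activating receptor genes are printed next, 5′ to 3′ along the gene's strand, because their ratios between the libraries, given further on, spanned the widest range. Capitals mark matches to 4 motif patterns, searched on both strands: GAGGAA (the ETS/PU.1 core), TTCNNNGAA (the GAS element bound by STAT factors), an IRF element (GAAA, any 2 bases, GAAA) and an NF-kB element (GGG, any 2 bases, TT, any 1 base, CC). The windows are chr3:96293970-96294219 (minus strand) for Fcgr1, chr1:171059404-171059653 (minus strand) for Fcgr3 and chr1:171018676-171018925 (plus strand) for Fcgr4, all RefSeq, GRCm38.p6. The Fcgr3 window belongs to the first of 2 transcript starts that the RefSeq promoter table lists, and it lies inside the Fcgr3 gene body given above, downstream of the body's 5′ end.
Fcgr1 upstream: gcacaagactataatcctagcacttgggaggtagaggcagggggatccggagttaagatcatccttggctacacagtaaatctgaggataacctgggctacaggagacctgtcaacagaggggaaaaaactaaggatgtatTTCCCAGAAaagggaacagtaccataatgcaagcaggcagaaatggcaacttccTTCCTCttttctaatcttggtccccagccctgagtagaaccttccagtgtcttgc
Fcgr3 upstream: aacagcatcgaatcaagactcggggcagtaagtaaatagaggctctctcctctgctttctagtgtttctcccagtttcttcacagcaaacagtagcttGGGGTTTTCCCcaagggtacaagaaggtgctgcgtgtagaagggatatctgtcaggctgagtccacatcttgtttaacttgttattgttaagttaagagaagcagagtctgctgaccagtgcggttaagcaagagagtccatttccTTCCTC
Fcgr4 upstream: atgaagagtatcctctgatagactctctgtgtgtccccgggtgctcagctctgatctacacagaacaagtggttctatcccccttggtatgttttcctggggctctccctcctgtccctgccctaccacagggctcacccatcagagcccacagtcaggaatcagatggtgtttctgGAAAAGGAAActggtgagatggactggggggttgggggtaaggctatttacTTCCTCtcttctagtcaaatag
Each of the 3 windows held 1 ETS/PU.1 core on the opposite strand, read as TTCCTC, close to the start, and 23.25% of 32851 mouse windows of this kind in the RefSeq table held one. The GAS pattern was found for Fcgr1 (7.02% of all windows), the IRF pattern for Fcgr4 (2.98%) and the NF-kB pattern, as 2 overlapping matches, for Fcgr3 (4.11%). The windows upstream of Fcgr2b and Fcer1g held 0 matches to the 4 patterns. The motifs do not overlap one another within these windows except for the NF-kB pair, and a match of letters is a description and not a shown binding site.

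Cells were barcodes with at least 500 UMIs and at least 100 genes, which gave 320 cells with 381305 UMIs in KO and 1427 cells with 1989011 UMIs in WT. The median depth was 963.5 and 1065 UMIs per cell, and 0 cell barcodes were shared by the libraries. Park7 had 1 UMI in KO and 323 UMIs in WT, as the labels require. All 8 microglia markers were found in each library, at 24480 and 15090 UMIs per 1000000 cell UMIs (CPM, the unit of all levels given here). Neutrophil markers were at 0 UMIs in KO and 66.9 CPM in WT, monocyte markers were at 28.9 and 77.9 CPM with Ly6c2 at 0 in both, and mast cell markers were at 0 in both. Border macrophage markers, read mainly from Mrc1 and Stab1, were at 461.6 and 445.4 CPM, and Cd163, Lyve1, F13a1, Pf4, Cbr2 and Ms4a7 were at 0 in KO. A summed list of inflammatory genes stood at 1240 CPM in KO and 14840 CPM in WT, and a list of interferon-response genes at 894.3 and 3973 CPM. Choroid plexus markers were far higher in KO, at 2135 CPM in 67 of the 320 cells, than in WT, at 15.1 CPM. Those of astrocytes (377.7 and 173.5 CPM) and endothelial cells (91.8 and 20.1 CPM) were also higher in KO. Xist, which is transcribed in cells of the female mouse, was at 2106 CPM in KO and 802.9 CPM in WT, beside 1877 and 1048 CPM in free RNA.

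The receptors and the FcRγ chain were lower in KO than in WT, and Syk was not. Of the 6 genes, 4 were at least 2-fold lower in KO and 0 at least 2-fold higher. Among all 9085 genes that reached 20 UMIs in total, 15.3% were at least 2-fold lower and 13.5% at least 2-fold higher in KO. The median log2 ratio of KO over WT was -1.07 over the 6 genes and 0.03 over all 9085. Without the cells that held a UMI of a choroid plexus, astrocyte or endothelial marker, which left 180 and 1152 cells, the log2 ratios were -0.82 for Fcgr1, -0.37 for Fcgr3, -6.53 for Fcgr4, -1.14 for Fcgr2b, -1.12 for Fcer1g and 0.22 for Syk, so that Fcgr1 was then less than 2-fold lower. For 5 of the 6 genes the interval of the ratio lay below 1. Bulk levels of this kind cannot tell fewer expressing cells from fewer transcripts per cell, and the shares of cells are given further on. The KO levels of Fcgr1, Fcgr3, Fcgr2b and Syk were not above those of free RNA in the same library, as detailed with the shares.

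Among the activating receptors, the low-affinity receptor gene Fcgr3 had the highest level in each library. Fcgr3 had 273 UMIs in KO, or 716 CPM (633.5 to 806.1), and 1924 UMIs in WT, or 967.3 CPM (924.6 to 1012). Its ratio of 0.740 (0.650 to 0.841) was the mildest difference among the receptors. Fcgr1, the receptor that binds monomeric immunoglobulin G, had 101 UMIs in KO, or 264.9 CPM (215.7 to 321.9), and 1123 UMIs in WT, or 564.6 CPM (532.1 to 598.6). The ratio was 0.469 (0.379 to 0.576), a level 2.13-fold lower in KO.

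Fcgr4 was nearly undetected in KO. This gene encodes a receptor of intermediate affinity known from monocytes, neutrophils and activated macrophages. It had 1 UMI in KO, or 2.62 CPM (0.0664 to 14.6), and 491 UMIs in WT, or 246.9 CPM (225.5 to 269.7). The ratio was 0.0106 (0.000268 to 0.0595), and since it rests on 1 UMI its size is known only within that interval. The 491 UMIs of WT came from 351 cells, of which 260 held 1 UMI, and the 3 cells with most Fcgr4 UMIs held 4.28% of them. Monocyte and neutrophil markers were also lower in KO. Without the cells that held a UMI of either list, which left 315 and 1242 cells, the log2 ratio was -5.87, beside -5.97 with all cells.

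The inhibitory receptor gene Fcgr2b was lower in KO by about as much as Fcgr1. It had 59 UMIs in KO, or 154.7 CPM (117.8 to 199.6), and 641 UMIs in WT, or 322.3 CPM (297.8 to 348.2), with a ratio of 0.480 (0.361 to 0.628). Fcer1g, whose product the activating receptors need for surface expression and signalling, had 200 UMIs in KO, or 524.5 CPM (454.3 to 602.5), and 2489 UMIs in WT, or 1251 CPM (1203 to 1302). Its ratio of 0.419 (0.361 to 0.484) was the lowest after that of Fcgr4. Syk had 53 UMIs in KO, or 139 CPM (104.1 to 181.8), and 275 UMIs in WT, or 138.3 CPM (122.4 to 155.6). The Syk ratio was 1.00 (0.735 to 1.35), so that a difference within this interval was not detectable at this depth.

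The 3′ UMI counts hold about 1 count per captured molecule whatever the transcript's length, so levels of different genes were set side by side without dividing by length. In WT the order was Fcer1g, Fcgr3, Fcgr1, Fcgr2b, Fcgr4 and Syk, and no neighbouring intervals overlapped. In KO the order was Fcgr3, Fcer1g, Fcgr1, Fcgr2b, Syk and Fcgr4. There the intervals of Fcgr2b and Syk overlapped, and Fcer1g stood below Fcgr3, whereas in WT it stood above. The bar chart of levels shows these values.

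**Figure D1:**
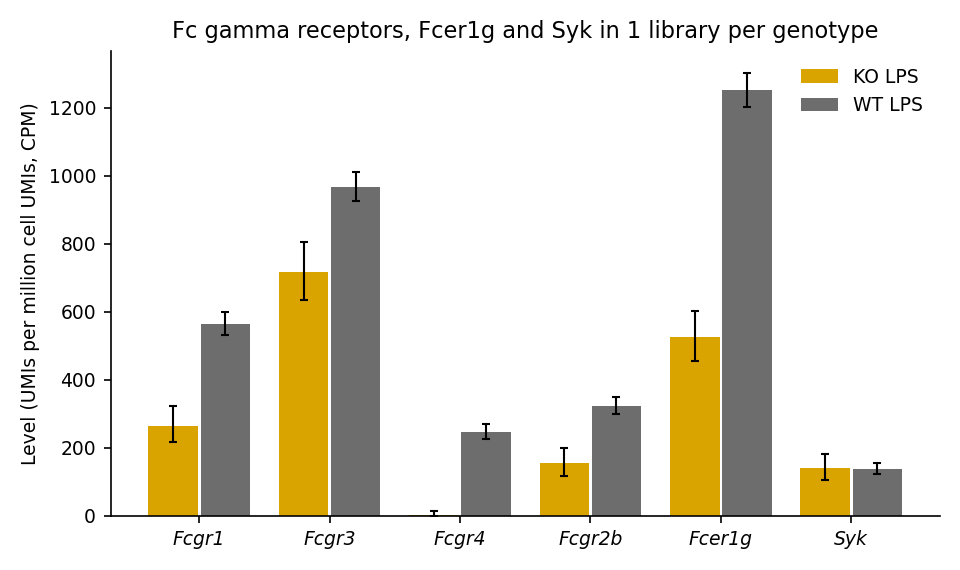
Level of each gene in UMIs per 1000000 cell UMIs (CPM), summed over the 320 cells of KO (yellow) and the 1427 cells of WT (grey), 1 library each; error bars are exact 95% counting intervals. The bars of 5 genes are lower in KO with no overlap of the intervals, Fcgr4 is close to 0 in KO, and those of Syk are level at 139 and 138.3 CPM.

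The balance of activating against inhibitory receptors differed less than the level of any single receptor when all UMIs were counted, but not at equal depth. This ratio is taken within a library and does not use the library total. UMIs of the 3 activating receptors per UMI of Fcgr2b came to 6.36 (4.82 to 8.51) in KO and 5.52 (5.07 to 6.01) in WT. The KO ratio was 1.15 times that of WT (0.861 to 1.56), an interval that includes 1. With each cell thinned to 500 UMIs its log2 value was 0.64 in place of 0.20, beside -0.50 for the Fcgr3 level.

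The UMIs of the activating side were not made up alike in the libraries. Per Fcgr2b UMI there were 4.63 Fcgr3 UMIs (3.48 to 6.24) in KO and 3.002 (2.74 to 3.29) in WT, a ratio of ratios of 1.54 (1.14 to 2.11). For Fcgr1 the values were 1.71 (1.23 to 2.40) and 1.75 (1.59 to 1.93), and the ratio of ratios was 0.977 (0.691 to 1.39). For Fcgr4 they were 0.0170 (0.000422 to 0.0982) and 0.766 (0.680 to 0.863). Fcgr3 thus held 62.9% of all receptor UMIs in KO (58.2 to 67.5) and 46.0% in WT, Fcgr4 held 0.230% and 11.8%, Fcgr1 23.3% and 26.9%, and Fcgr2b 13.6% and 15.3%. Without Fcgr4, the activating over inhibitory ratio was 6.34 in KO and 4.75 in WT, a ratio of ratios of 1.33 (0.997 to 1.81). Free RNA, taken from barcodes with 100 UMIs or fewer, showed the same pattern: Fcgr3 per Fcgr2b was 3.76 (2.54 to 5.70) in KO and 2.12 (1.55 to 2.93) in WT, and all 3 activating receptors per Fcgr2b came to 5.55 (3.81 to 8.30) and 4.18 (3.15 to 5.64). The KO cell levels of Fcgr1, Fcgr3 and Fcgr2b were not distinguishable from those in free RNA, so the KO values in cells and in free RNA cannot be told apart.

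**Figure D2:**
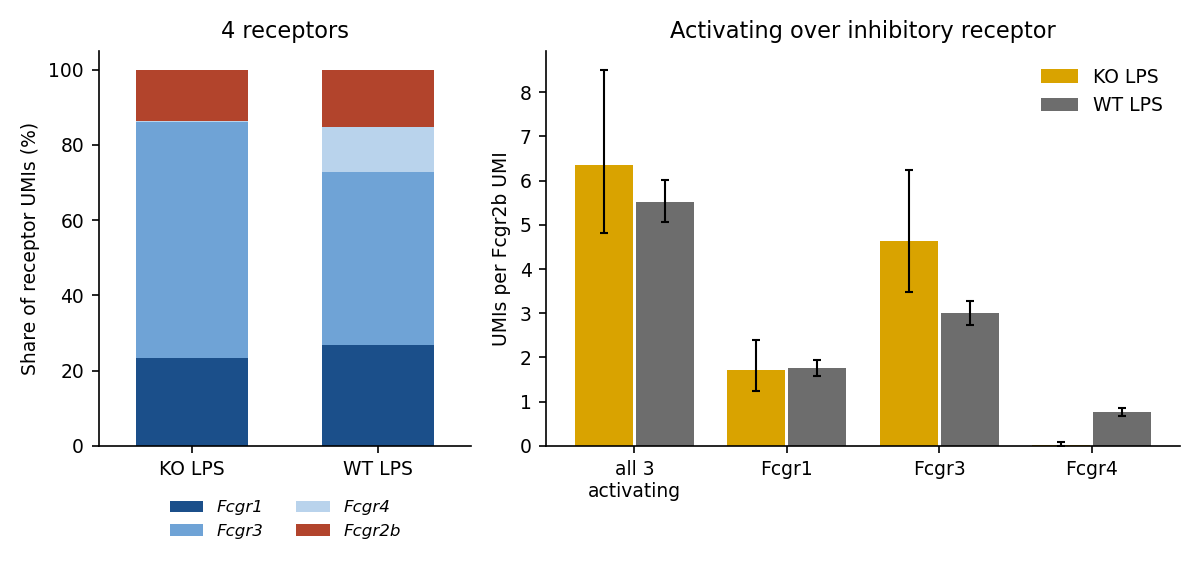
Left, share of the UMIs of the 4 Fc gamma receptors held by each (percent, 434 UMIs in KO and 4179 in WT); right, UMIs of all 3 activating receptors, Fcgr1, Fcgr3 and Fcgr4 per Fcgr2b UMI, with exact 95% counting intervals as error bars. The intervals of the summed ratio overlap (6.36 and 5.52), Fcgr3 per Fcgr2b is higher in KO (4.63 and 3.002), and the light Fcgr4 segment is seen in WT and too thin to see in KO.

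The shared chain stood lower relative to the receptors in KO. Per UMI of the 3 activating receptors, which signal through it, there were 0.533 Fcer1g UMIs (0.447 to 0.635) in KO and 0.704 (0.668 to 0.741) in WT, a ratio of ratios of 0.758 (0.631 to 0.910). In free RNA these values were 0.322 (0.236 to 0.435) and 0.438 (0.347 to 0.551), a ratio of ratios of 0.736 (0.499 to 1.08). The difference in cells could thus not be told from that in free RNA. With Fcgr2b included there were 0.461 Fcer1g UMIs (0.388 to 0.546) per UMI of the 4 receptors in KO and 0.596 (0.567 to 0.626) in WT, a ratio of ratios of 0.774 (0.646 to 0.924). Tyrobp, which encodes DAP12, the other main ITAM adaptor of microglia and the partner of TREM2, was at 1041 CPM (941.3 to 1149) in KO and 1258 CPM (1209 to 1308) in WT. Its ratio of 0.828 (0.743 to 0.921) was closer to 1 than that of Fcer1g. Fcer1g UMIs per Tyrobp UMI were 0.504 (0.423 to 0.599) in KO and 0.995 (0.941 to 1.05) in WT.

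Shares of cells with a UMI were compared after each cell had been thinned to 500 UMIs. Beside them stands the share that droplets of 500 UMIs would reach if they held only free RNA, taken from barcodes with 100 UMIs or fewer. The source of this free RNA was not tested, and a share at or below this level is read as background.

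Fcer1g was the gene with the clearest signal in cells. It was found in 71 of 320 KO cells (22.2%, 17.8 to 27.1) and 595 of 1427 WT cells (41.7%, 39.1 to 44.3), where free RNA alone would give 13.8% and 16.0%. Fcgr3 was found in 27.5% of KO cells (22.7 to 32.7), about the 26.8% of free RNA alone, and in 34.3% of WT cells (31.8 to 36.8), above the 18.2% of free RNA alone. Fcgr1 was found in 11.3% of KO cells (8.01 to 15.2), not above the 13.6% of free RNA alone, and in 23.9% of WT cells (21.7 to 26.2), above 14.4%.

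Fcgr2b was found in 16 of 320 KO cells (2.89 to 7.99%; free RNA alone 7.97%) and in 13.7% of WT cells (11.99 to 15.6; free RNA alone 9.07%). Fcgr4 was found in 0 of 320 KO cells, which allows a share of cells with a UMI at this depth of up to 0.938% by a limit of 3 counts (exact upper limit 1.15%). Without thinning 1 of 320 cells held a UMI (exact upper limit 1.73%), and at 1000 UMIs 1 of 148 did (3.71%). It was found in 11.4% of WT cells (9.75 to 13.1; free RNA alone 4.03%). Syk was at background in both libraries, with 5.94% (free RNA alone 10.3%) and 6.31% (free RNA alone 7.17%). In KO, therefore, only the Fcer1g share, of these 6, had an interval above that of free RNA alone. Without thinning the shares were higher, from 0.313% (Fcgr4) to 49.7% (Fcgr3) in KO and from 15.5% (Syk) to 66.2% (Fcer1g) in WT.

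**Figure D3:**
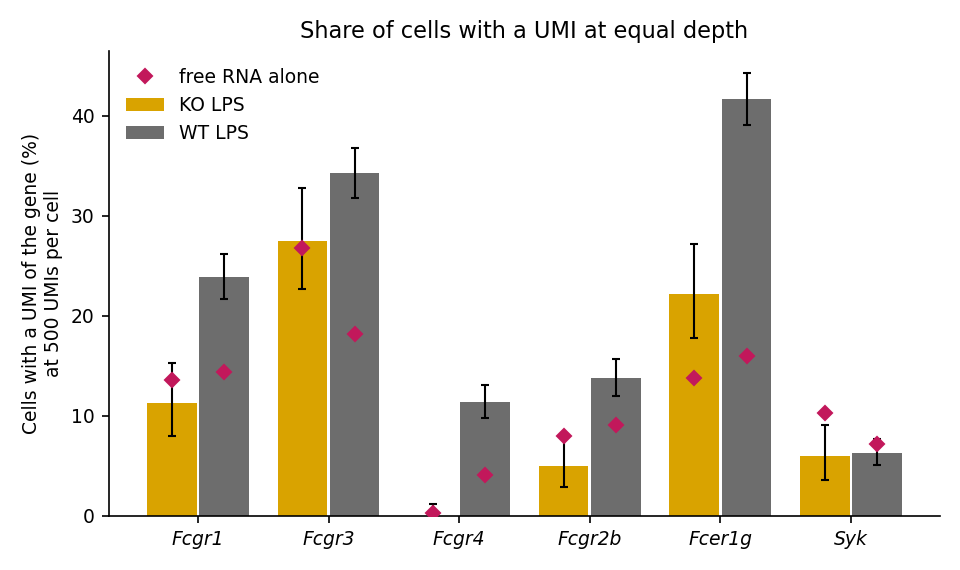
Percent of cells with at least 1 UMI of each gene when every cell is thinned to 500 UMIs, in KO (yellow, 320 cells) and WT (grey, 1427 cells), with exact 95% binomial intervals; diamonds mark the share expected from free RNA alone in the same library. In WT the bars of all genes but Syk stand above their diamonds, and in KO that of Fcer1g (22.2% against 13.8%) stands clear of it.

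Levels in cells were also set against those in free RNA. In WT the cell level was 3.59 times the free level for Fcer1g (2.97 to 4.39), 2.998 times for Fcgr4 (2.02 to 4.64), 2.41 times for Fcgr3 (2.01 to 2.90), 1.82 times for Fcgr1 (1.48 to 2.26) and 1.696 times for Fcgr2b (1.30 to 2.25). In KO it was 1.77 times for Fcer1g (1.32 to 2.40), 1.15 times for Fcgr3 (0.925 to 1.43), 0.932 times for Fcgr2b (0.599 to 1.47) and 0.908 times for Fcgr1 (0.651 to 1.28). For Syk it was 0.642 times in KO (0.422 to 0.984) and 0.929 times in WT (0.680 to 1.29). The free level of Fcgr3 was itself higher in KO, at 624 CPM (519 to 744) against 402.2 CPM (335.3 to 478.6) in WT.

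Shared detection of receptors and chain was close to the product of their shares. At 500 UMIs, 27.3% of WT cells (25.0 to 29.7) held a UMI of any of the 4 receptors and of Fcer1g, where the product of both shares is 25.0%. An activating receptor and Fcgr2b were found together in 8.83% of WT cells (7.41 to 10.4), with a product of 7.57%. In KO the same pairs were found in 32 of 320 cells (6.94 to 13.8%; product 8.46%) and in 2.81% of cells (1.29 to 5.27; product 1.80%). For the 3 activating receptors and Fcer1g, the share in WT was 25.5% (23.3 to 27.9) beside a product of 22.97%. Fcer1g was found in 46.3% of the 786 WT cells with an activating receptor (42.8 to 49.9) and in 36.0% of the 641 without one (32.3 to 39.9). Fcgr2b was found in 16.0% (13.5 to 18.8) and 10.9% (8.61 to 13.6) of the same cells. In KO the Fcer1g shares were 25.2% (17.6 to 34.2) and 20.5% (15.2 to 26.7), with overlapping intervals. At 1000 UMIs an activating receptor and Fcer1g were found together in 55.7% of WT cells (52.1 to 59.3), beside a product of 54.5%. There the WT shares of Fcer1g were 70.8% (67.0 to 74.4) with and 63.4% (55.6 to 70.8) without an activating receptor, and the KO shares were 41.1% and 45.3%, so the difference seen in WT at 500 UMIs did not hold beyond its intervals. These are descriptions over cells of 1 library.

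Downstream of the receptors, genes of the activating pathway differed in both directions between the libraries. Of 24 genes outside the 6 that are named with ratios here and in the text on Tyrobp, the inhibitory side and the other receptors, the KO level in cells was above that in free RNA beyond its interval for 3 (Tyrobp, Lat2 and Vav2), and the WT level for 12. For the other 21 the KO level in cells could not be told from that in free RNA, Fgr and Trem1 with 0 UMIs in either. In WT the cell level of 1 gene, Clec5a, was below its free level, at 0.680 times it (0.586 to 0.790). Of a list of 42 proximal and downstream activating genes, 39 had at least 20 UMIs, and 8 of these were at least 2-fold higher and 2 at least 2-fold lower in KO, with a median log2 ratio of 0.38, beside 13.5% and 15.3% of all genes that were higher and lower. Such counts use log2 ratios with a prior count of 0.5. Of the 8, Fyn and Sos1 passed only with this prior, with plain ratios of 1.92 and 1.996. Of the Src-family kinases that phosphorylate ITAMs, Lyn had a ratio of 0.756 (0.650 to 0.876), and Fgr had 0 UMIs in KO and 185 in WT. With a floor of 3 counts Fgr was 11.8-fold lower in KO (exact lower limit 9.52-fold). Fyn, chosen after its values were seen as another such kinase, had 7 and 19 UMIs (1.92, 0.683 to 4.77). The adaptor genes Lat2 (0.583, 0.451 to 0.745) and Sh3bp2 (0.385, 0.188 to 0.709) were also lower. Higher in KO were the adaptor gene Blnk with a ratio of 3.77 (3.02 to 4.71), the exchange factor gene Vav2 with 4.04 (2.27 to 7.11) and the phospholipase gene Plcg1 with 3.33 (1.89 to 5.78). Blnk stood at 0.817 times its free level in KO (0.622 to 1.08) and 1.07 times in WT (0.720 to 1.64). B lymphocytes also express it. Their markers were at 212.4 CPM in KO and 60.3 CPM in WT, with Cd79a at 0 in both, and their part in the Blnk value was not tested.

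On the inhibitory side the level of the lipid phosphatase gene was higher in KO and that of the receptor gene lower. Inpp5d, which encodes SHIP1, was at 907.4 CPM (814.3 to 1008) in KO and 390.1 CPM (363.2 to 418.6) in WT, a ratio of 2.33 (2.04 to 2.64), beside 0.480 for Fcgr2b. Ptpn6, which encodes the tyrosine phosphatase SHP-1, had a ratio of 0.517 (0.400 to 0.661). In free RNA Inpp5d was at 870.6 CPM (745.7 to 1010) in KO and 395.9 CPM (329.5 to 471.7) in WT, so its cell level was 1.04 (0.866 to 1.26) and 0.986 (0.815 to 1.2) times the free level and could not be told from it in either library. For Ptpn6 it was 1.06 times in KO (0.696 to 1.63) and 1.67 times in WT (1.30 to 2.18). Of the 20 genes of the inhibitory list, 16 had at least 20 UMIs, and 7 were at least 2-fold higher and 3 at least 2-fold lower, with a median log2 ratio of 0.90, beside 13.5% and 15.3% of all genes that were higher and lower. The highest were the microglial surface gene Siglech (5.86, 5.27 to 6.51), which is also in the homeostatic list and is known to signal through DAP12 with no ITIM of its own, Cd300a (3.13, 2.19 to 4.43) and Sirpa (2.69, 2.33 to 3.10), the receptor for CD47. Siglech was at the free level in both libraries, at 0.993 times it in KO (0.878 to 1.12) and 1.097 in WT (0.886 to 1.37). Leaving it out takes 1 from the 16 and from the 7. The lowest were Cd72, Pirb (0.153, 0.0610 to 0.321) and Siglece (0.427, 0.222 to 0.751). Cd72 had 0 UMIs in KO and 392 in WT, 25.1-fold lower with a floor of 3 counts (exact lower limit 20.3-fold).

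Genes of a list drawn up for other ITAM adaptors, further adaptors and partner receptors differed in both directions. Of 16 listed genes 7 had at least 20 UMIs, and 1 of these was at least 2-fold higher and 2 at least 2-fold lower in KO, with a median log2 ratio of -0.66, beside 13.5% and 15.3% of all genes that were higher and lower. Trem2, the lipid-sensing partner of DAP12, had a ratio of 2.81 (2.46 to 3.21) and Cd33 one of 1.95 (1.44 to 2.61). Trem1, which amplifies responses to bacterial products, had 0 UMIs in KO and 72 in WT. With a floor of 3 counts it was 4.60-fold lower in KO (exact lower limit 3.65-fold). Clec5a had a ratio of 0.507 (0.405 to 0.629) and Hcst one of 0.602 (0.265 to 1.202). Among 12 other Fc receptors and relatives, 4 had at least 20 UMIs, of which 2 were at least 2-fold higher and 1 at least 2-fold lower (median log2 ratio 0.79), and the same shares of all genes apply. Fcrls, a microglial Fc receptor-like gene with no known antibody ligand, had a ratio of 3.83 (3.43 to 4.27), and the neonatal Fc receptor gene Fcgrt one of 0.765 (0.431 to 1.28). Ighm, the one immunoglobulin gene analysed here, was at 91.8 CPM in KO and 44.2 CPM in WT.

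**Figure D4:**
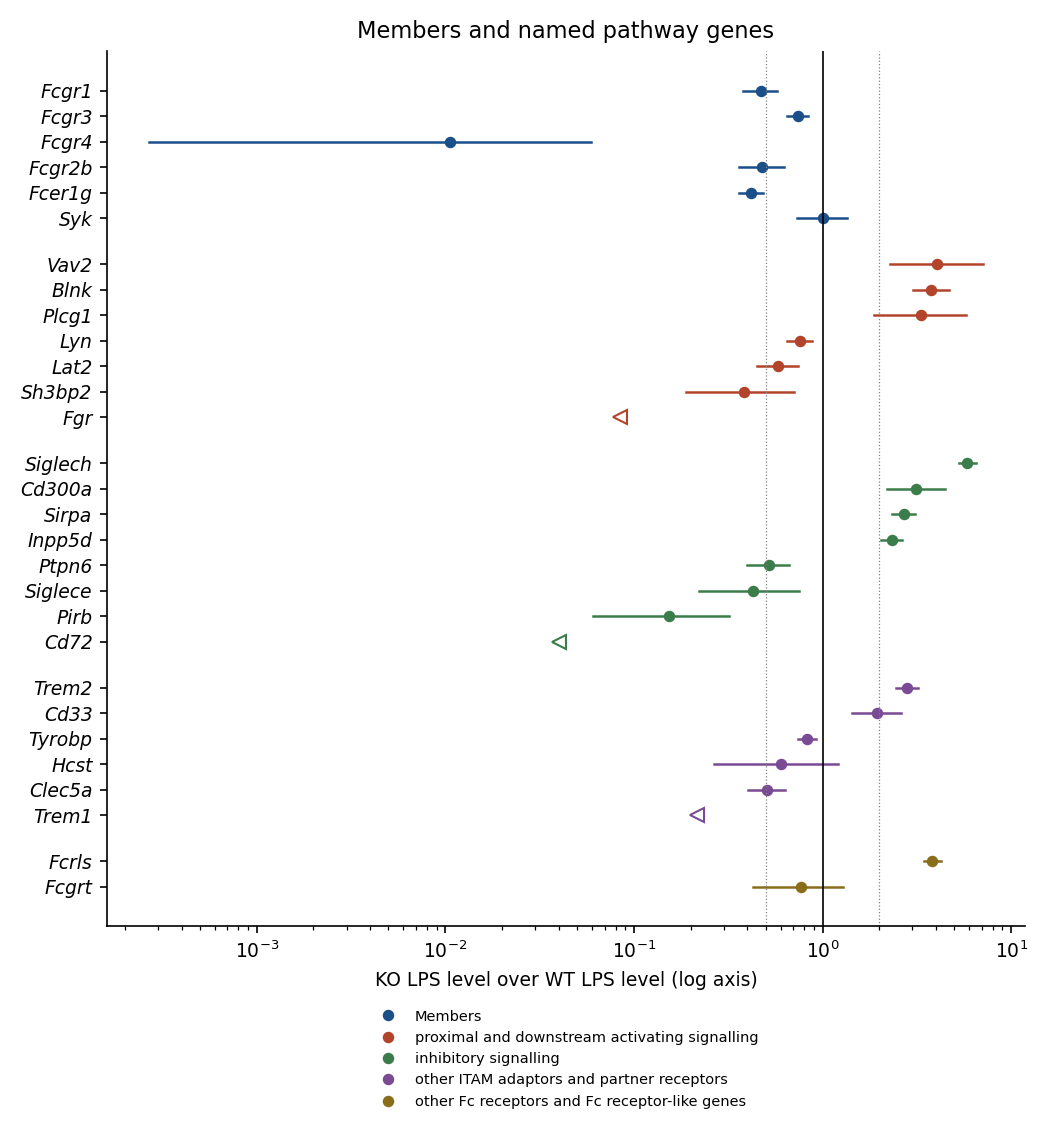
Level in KO over level in WT on a log axis for the 6 genes and the named genes of 4 pathway lists, with exact 95% counting intervals as lines; open triangles mark genes with 0 UMIs in KO, drawn at the ratio that a floor of 3 counts gives, and dotted lines mark 2-fold. The receptors and Fcer1g lie left of 1 and Syk lies on it, while each pathway list has genes on both sides, such as Blnk at 3.77 and Sh3bp2 at 0.385.

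Within WT the members were then followed across the range of a cell's state. The cells were split into 3 equal groups by the share of their UMIs in the inflammatory list, which holds none of the 6 genes. The groups are ranges of a score and not cell types, and 236 of the 1427 cells lay within 10% of a limit between groups. In KO 123 of 320 cells had 0 UMIs of this list, so no such split was made there.

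Fcer1g and Fcgr4 were the genes that differed most along the inflammatory range. Fcer1g was at 964.3 CPM in the lowest group, 1287 CPM in the middle and 1434 CPM in the highest, a ratio of highest over lowest of 1.49 (1.34 to 1.65). Fcgr4 was at 189.3, 244.3 and 292.8 CPM (ratio 1.55, 1.22 to 1.97). Fcgr1 was at 488.5, 610.1 and 578.8 CPM (1.18, 1.02 to 1.39). The intervals of Fcgr2b (1.18, 0.970 to 1.45), Fcgr3 (0.918, 0.817 to 1.03) and Syk (0.886, 0.659 to 1.19) included 1. Activating over inhibitory ratios were 5.56, 6.07 and 5.02 from the lowest to the highest group, with overlapping intervals. The median depth of these groups was 909.5, 1136 and 1197 UMIs per cell, and its part in these differences was not tested beyond the split on thinned cells, which gave a log2 ratio of 0.38 for Fcgr4 in place of 0.63.

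Along the interferon range the ratio of the highest over the lowest group was 1.42 for Fcgr1 (1.22 to 1.66), 1.46 for Fcgr4 (1.16 to 1.86), 1.37 for Fcgr2b (1.11 to 1.703) and 1.16 for Fcer1g (1.04 to 1.28). It was 1.12 for Fcgr3 (0.993 to 1.26) and 1.05 for Syk (0.766 to 1.43). When the groups were set on thinned cells, the log2 ratio of Fcgr2b was 0.07 in place of 0.45. Along the homeostatic range the receptors and chain were all higher in the highest group of WT cells, with ratios of 2.18 for Fcgr4 (1.68 to 2.84), 1.81 for Fcgr3 (1.59 to 2.07), 1.76 for Fcer1g (1.57 to 1.97), 1.64 for Fcgr2b (1.32 to 2.05) and 1.497 for Fcgr1 (1.27 to 1.76). Syk was lower there, at 0.670 (0.488 to 0.916). In this split 523 of the 1427 cells lay within 10% of a limit and the median depth was 872, 1234 and 1114 UMIs from the lowest to the highest group. With groups set on thinned cells the WT log2 ratios kept their sign, at 0.79 for Fcgr4, 0.82 for Fcgr3, 0.72 for Fcer1g, 0.53 for Fcgr2b, 0.49 for Fcgr1 and -0.50 for Syk. In KO, where 141 of 320 cells lay within 10% of a limit, Fcer1g had a ratio of 2.38 (1.58 to 3.67) and the intervals of Fcgr3 (1.37, 0.992 to 1.92), Fcgr2b (1.66, 0.735 to 3.999), Fcgr1 (0.932, 0.549 to 1.59) and Syk (0.782, 0.382 to 1.59) included 1.

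**Figure D5:**
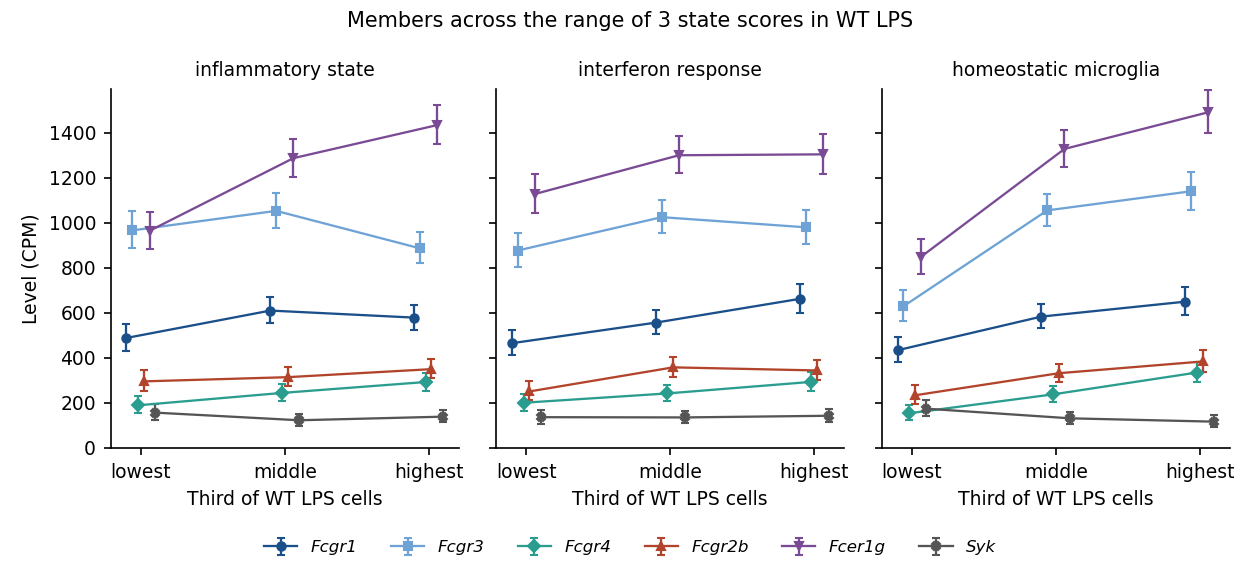
Level (CPM) of each gene in the lowest, middle and highest of 3 equal groups of the 1427 WT cells, ordered by the share of their UMIs in the inflammatory, interferon or homeostatic list; error bars are exact 95% counting intervals. In CPM, Fcer1g climbs most on the left panel, from 964.3 to 1434 CPM. Fcgr3 is highest in the middle group there, at 966.1, 1053 and 886.5 CPM. The receptors and Fcer1g all climb on the right panel.

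The KO levels of the receptors and of Fcer1g were below those of the WT cells with the lowest inflammatory scores. These cells were not matched in score: the WT group ran from 0 to 0.655% of UMIs, and the KO median was 0.0902%. The KO levels of Fcgr1, Fcgr3 and Fcgr2b were also not distinguishable from free RNA. The part of inflammatory state in these ratios was not tested. Against that lowest WT group the ratio was 0.544 for Fcer1g (0.460 to 0.641), 0.542 for Fcgr1 (0.427 to 0.684), 0.523 for Fcgr2b (0.382 to 0.709), 0.741 for Fcgr3 (0.638 to 0.859) and 0.0139 for Fcgr4 (0.000348 to 0.0789). For Syk it was 0.886 (0.618 to 1.26) and for Tyrobp 0.929 (0.817 to 1.06). Among cells with an Xist UMI, 209 in KO and 645 in WT, the ratios were 0.442 for Fcgr1, 0.745 for Fcgr3, 0.0137 for Fcgr4, 0.451 for Fcgr2b, 0.416 for Fcer1g and 0.926 for Syk. These cells are not a clean set of female cells, since Xist was also in free RNA and 9 KO and 80 WT cells held both Xist and Y-linked UMIs. KO had 12 cells with a Y-linked UMI and no Xist UMI, and the sexes were not separated here.

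The neighbours of the receptor genes on chromosome 1 gave few UMIs. Sdhc and Tomm40l lie between Fcgr3 and Fcer1g. Sdhc had 11 UMIs in KO and 92 in WT, a ratio of 0.624 (0.301 to 1.17), and Tomm40l had 2 and 49 UMIs (0.213, 0.0251 to 0.811). Pcp4l1, also between Fcgr3 and Fcer1g, went the other way with 8 UMIs in KO and 0 in WT. Over the cells of WT, the genes whose single-cell level was most like that of Fcer1g, out of 227 with at least 200 UMIs in each library, were B2m (r = 0.40), Cst3 (0.39), C1qb (0.37), Actb (0.36) and Fth1 (0.34), with r = 0.17, 0.27, 0.17, 0.15 and 0.23 in KO. For Fcgr3 they were Cst3 (0.33), B2m (0.30), Ctss (0.28), C1qb (0.27) and Actb (0.26). These correlations are weak, run over cells of 1 library that share depth and free RNA, and are given as a description.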

How the data were processed

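Raw counts, UMIs per gene and cell barcode, were deposited by the authors as 1 matrix per library without normalisation. Each held 9999 barcodes and was not filtered to cells, with 684738 UMIs in KO and 3063795 in WT. Genes with missing values in 1 library (5616 in KO, 3036 in WT) were read as 0. The submitters' processing notes name bcl2fastq 2.0, STAR, mm9 and mm10 with no role. The counting program, the annotation and the use of strand are not given in the sources used here, so counts of overlapping genes are uncertain. Before sorting, cells had been incubated with an inhibitor of Fc receptor binding. The members and lists were chosen with earlier results of these data known.

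UMIs were summed over cells and divided by the library's cell UMIs (CPM). Levels have exact Poisson intervals, ratios exact conditional binomial intervals, ratios of ratios exact conditional (Fisher) intervals and shares of cells Clopper-Pearson intervals, computed with Python 3.11.15, numpy 2.4.6, scipy 1.17.1 and pandas 2.3.3 and tested on simulated data. Log2 ratios used a prior count of 0.5, and genes at 0 a floor of 3 counts per library. Named pathway genes were the 3 highest and 3 lowest log2 ratios of each list among genes with at least 50 UMIs, plus Tyrobp, Inpp5d, Ptpn6, Lyn and Fcgrt. One further gene of this rule is not reported here. A MAST test was not run, since cells of 1 library are not replicates. Doublets were left in. As alternatives, cells above the 98th percentile of UMIs were removed, and cell thresholds, scaling, depth, free RNA, prior count and the presence of Xist or Y-linked UMIs were varied. Symbols were as in the matrices, and all 6 genes matched RefSeq.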

Additional observations from a re-analysis of the deposited data

Results flagged for a closer look

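Barcodes that were not counted as cells (9679 in KO and 8572 in WT) are outside the comparison of cells, though the free RNA level used here comes from those with 100 UMIs or fewer and the setting with no UMI minimum includes some of them. In all of them together, 2 of the 6 genes were higher in KO than in WT. Fcgr3 was at 682.2 CPM (592.4 to 781.7) in KO and 474.5 CPM (434.2 to 517.5) in WT. Syk was at 224.1 CPM (174 to 284.1) in KO and 126.5 CPM (106.2 to 149.7) in WT. Both genes had the opposite or no difference in cells, with cell levels of 716 and 967.3 CPM for Fcgr3 and 139 and 138.3 CPM for Syk.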

How the results depend on the processing

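Of 197 recomputed values, 145 lay within the exact 95% counting interval of the reported value (for counts of genes, within 1.5 times of it) and 52 lay outside. That interval is wide for low counts: it holds the -7.48 of Fcgr4, reported as -5.97. The sign changed only for values whose interval included 1 as reported: the log2 ratio of Syk under 7 alternatives, among them -0.38 with cells of at least 1000 UMIs, the activating over inhibitory log2 value, which was -0.033 with Fcgr1 alone, and the Fcgr1 log2 ratio along the homeostatic range of KO, which was 0.36 with thinned scores and -0.10 as reported. The count of 4 genes at least 2-fold lower rests on Fcgr1 and Fcgr2b, which were close to 2-fold and under it in some alternatives: among others, Fcgr2b was at -0.86 with cells of at least 1000 UMIs and -0.94 with no UMI minimum, and Fcgr1 at -0.82 without cells with choroid plexus, astrocyte or endothelial UMIs. Over the alternatives the log2 ratio ran from -1.21 to -0.46 for Fcgr1, -0.50 to -0.0041 for Fcgr3, -7.48 to -2.33 for Fcgr4, -1.57 to -0.75 for Fcgr2b, -1.72 to -1.12 for Fcer1g and -0.69 to 0.28 for Syk. In the cells with a Y-linked UMI and no Xist UMI, of which KO had 12, it was -0.46 for Fcgr1, -0.0041 for Fcgr3, -2.33 for Fcgr4, -1.72 for Fcer1g and -0.69 for Syk, and the log2 ratio of the activating over inhibitory ratios was 0.70. With no UMI minimum the value for Fcgr3 was -0.24, and with cells thinned to 500 UMIs that for Fcgr2b was -1.57. The alternatives without cells of other marker lists, with interferon and homeostatic scores on thinned cells and with Fcgr1 alone over Fcgr2b were added after the data had been seen.

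Shares of cells depended on depth. At 1000 UMIs (148 and 770 cells) they were, for KO and WT, 22.3% and 40.7% for Fcgr1, 52.0% and 59.7% for Fcgr3, 15.5% and 23.1% for Fcgr2b, 42.6% and 69.2% for Fcer1g, 10.8% and 10.7% for Syk, and 20.1% for Fcgr4 in WT. Without thinning they were 23.4% and 46.0%, 49.7% and 59.4%, 16.3% and 28.1%, 41.3% and 66.2%, 15.0% and 15.5%, and 24.6%, in the same order. An activating receptor with Fcgr2b was found in 10.8% and 18.8% of cells at 1000 UMIs.

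Counts of genes past a fold moved with the filter. With at least 200 UMIs, 2 of 20 genes of the activating list were 2-fold higher and 0 lower, 0 of 4 other ITAM genes were lower, the 1 other Fc receptor gene was higher and 0 lower, and 8.69% of all 2462 genes tested were higher (214) and 16.3% lower (401). With at least 1 UMI, 2 of 7 other Fc receptor genes were lower, and of all 15846 genes 12.2% were lower (1929) and 24.5% higher (3889). At 1.5-fold, 13 of 39 activating genes were higher and 5 lower, 5 of 16 inhibitory genes were lower, 2 of 7 other ITAM genes were higher and 4 lower, and of all 9085 genes 26.2% were higher (2376) and 25.8% lower (2343). With cells of at least 1000 UMIs, 0 of 3 other Fc receptor genes were lower, beside 15.9% of all 8381. No paired analysis was possible because each genotype had 1 library.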
